A study of Mus musculus with 40 samples.

Results

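The 10 genes described here belong to neutrophils and to the marrow cells that give rise to them. They were chosen by name, as Mpo, Elane, Ltf, Camp, Ngp, Lcn2, S100a8, S100a9, Retnlg, and Csf3r, and all 10 were found among the 21204 genes of the filtered count table. Expression was measured by bulk RNAseq of rib tissue from female wild-type C57BL/6 mice, in 39 libraries of 10 groups. Immature mice were 7 weeks old and mature mice were older than 10 months, and no group carried a transgene or received a drug. Baseline (BL) stands for ribs before resection in the study's methods, although the labels describe tissue after resection in every group. The later stages, written 0dpr, 2dpr, 5dpr, and 14dpr, count days after resection, when the tissue at the resection site (bone callus) was taken. Each group held n = 4 libraries, except the mature 5dpr group, of which n = 3 were used and replicate 2 was not analysed here. The labels number the replicates without saying that each is a separate mouse, so the p-values measure the spread between these libraries.

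Neutrophils are short-lived phagocytes that develop in bone marrow and are the first leukocytes to enter an injury. Their granules are filled in a fixed order. Promyelocytes make the primary granule proteins, later precursors make the secondary granule proteins, and the messengers of the first class are switched off before the cell leaves the marrow. A tissue that holds marrow therefore carries precursor transcripts, whereas recruited neutrophils carry mainly transcripts of late stages. By that order, Mpo (myeloperoxidase) and Elane (neutrophil elastase) are the precursor genes here. Ltf (lactoferrin), Camp (the cathelicidin antimicrobial peptide), Ngp (neutrophilic granule protein), and Lcn2 (lipocalin 2, which binds bacterial iron carriers) are the secondary granule genes. S100a8 and S100a9 (the subunits of calprotectin), Retnlg (a secreted resistin-like protein), and Csf3r (the receptor for granulocyte colony-stimulating factor) stay expressed in mature cells, and monocytes also transcribe S100a8, S100a9, and Csf3r.

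The libraries held between 6057756 and 21537070 counts (median 9087417). Levels are given as CPM, counts relative to the size of the library, scaled by TMM factors. The pieces were whole tissue, so fewer cells of a type and less RNA per cell cannot be told apart. Transcripts of skeletal muscle and of erythroid marrow were present throughout. No gene of the 20-gene skeletal muscle list or the 11-gene erythroid marrow list was at 0 in any library. Both lists moved strongly between stages. The summed CPM of the muscle list was in immature mice 91693 to 118950 at BL, 129190 to 238940 at 0dpr, and 19750 to 32045 at 2dpr. Mature mice had 49856 to 96472, 134260 to 268820, and 16386 to 32383.

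The baseline rib held the highest mean of 9 of the 10 genes. In each of these cases the group was mature BL, and the exception was Csf3r, whose highest mean was in mature mice at 2dpr. Levels of different genes can be compared only per length of transcript. In immature BL ribs, mean CPM per kb of annotated exon was 5999 for S100a9 and 3011 for S100a8, then 823 for Camp, 779 for Ngp, 288 for Retnlg, and 254 for Ltf. It was lowest for Mpo at 131, Elane at 118, and Csf3r at 22.75. In mature mice at 2dpr the CPM per kb of S100a9 was 2431, while Csf3r, at 52.06, stood above both Mpo (30.65) and Elane (24.32). In immature mice at 2dpr Csf3r was at 29.12, close to Mpo (28.78) and Elane (28.03). The receptor gene thus lay below the precursor genes at BL and above them at 2dpr on the per-length scale, by little in immature mice. No test was run between genes.

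**Figure D1:**
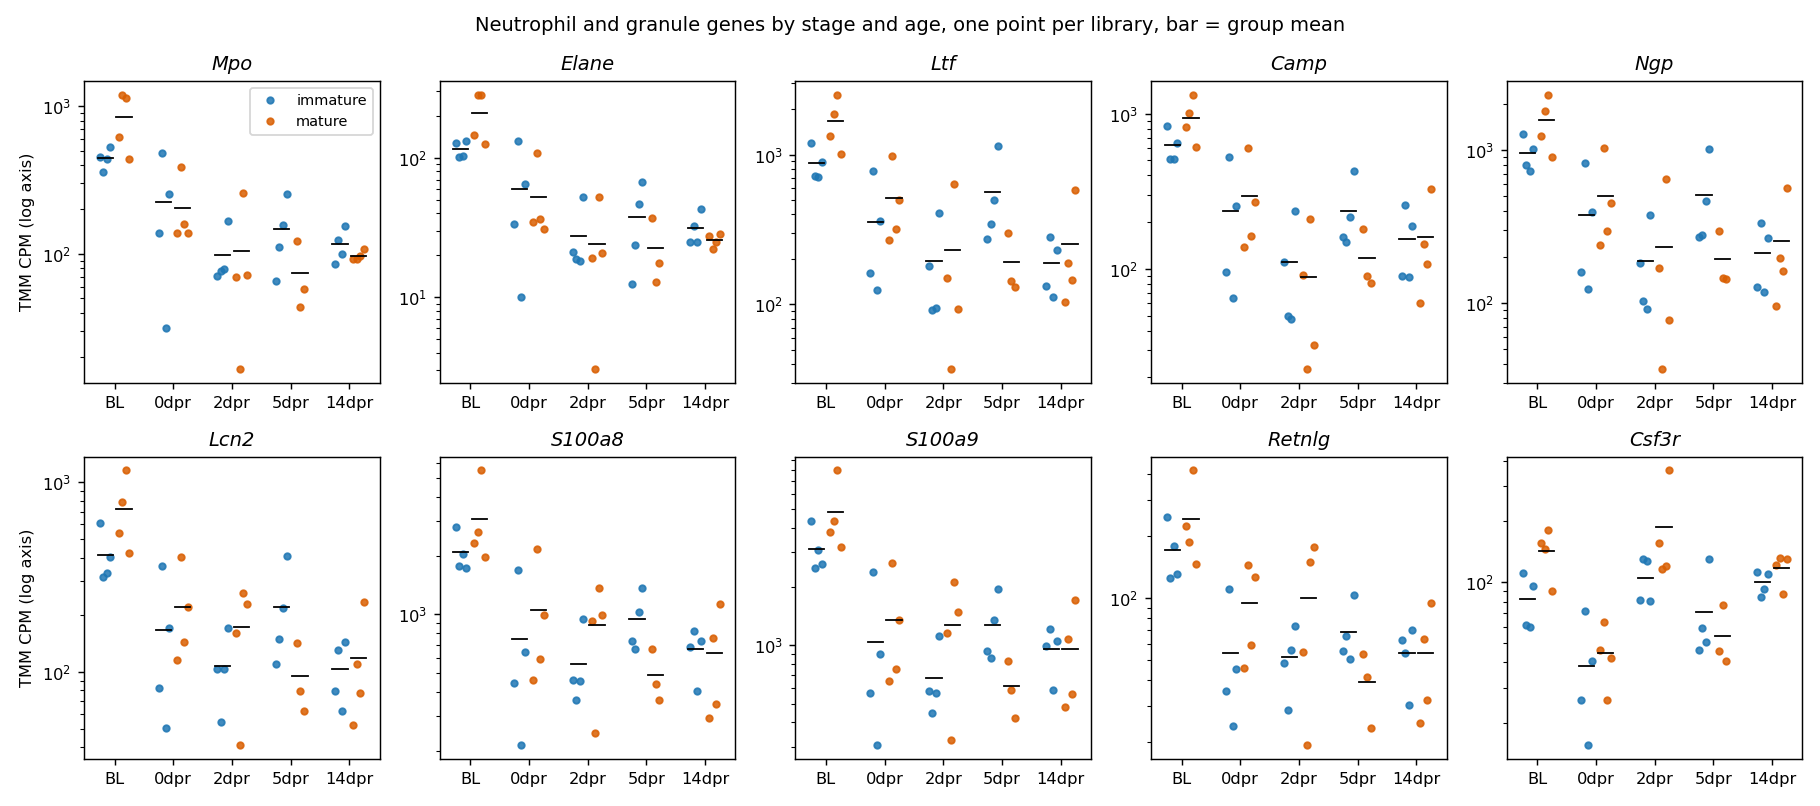
TMM CPM (log axis) of each gene in every library at BL, 0dpr, 2dpr, 5dpr, and 14dpr, with immature mice in blue, mature mice in orange, and a bar at each group mean. 9 genes have their highest mean in mature BL ribs, whereas Csf3r has a second high level at 2dpr and reaches 358 CPM in 1 mature library.

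Mpo (chr11:87793581-87804413, plus strand, GRCm38) encodes the enzyme that makes hypochlorous acid in the phagosome. In immature mice its CPM was 456, 358, 442, and 532 at BL, 138, 479, 31.4, and 253 at 0dpr, and 71.1, 76.9, 78.7, and 167 at 2dpr. It was 65.2, 112, 158, and 256 at 5dpr, and 86.1, 125, 99.9, and 154 at 14dpr. The baseline libraries were all high, those at 0dpr spread from far below to within the baseline range, and no library at 2, 5, or 14dpr reached the baseline range.

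In mature mice the CPM of Mpo was 622, 1195, 1131, and 441 at BL, 139, 386, 160, and 139.7 at 0dpr, and 70.4, 16.5, 260.3, and 72.6 at 2dpr. It was 123, 43.9, and 57.5 at 5dpr, and 92.3, 92.2, 97.5, and 108 at 14dpr. Every mature library after BL lay below every mature baseline library, and the 14dpr libraries were close to one another.

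Elane (chr10:79886247-79888215, plus strand) encodes a serine protease of the same granules and kept a nearly constant ratio to Mpo. The CPM of Elane ranged from 101 to 132 in immature and from 127 to 284 in mature BL ribs, and from 3.03 to 52.8 in mature mice at 2dpr. Over the 39 libraries Mpo spanned 72.2-fold and Elane 93.7-fold, yet the difference of their log2 CPM stayed between 1.62 and 2.38 (median 1.94, SD 0.19). The pair was thus high and low in the same libraries.

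The precursor genes are the ones on which the contrast with later genes rests, and their promoters are shown for that reason. A RefSeq promoter window (GRCm38.p6, from 250 bases before to 50 bases after the start) was found for all 10 genes, and all 32851 windows of this length were searched for the same letters on both strands. GAGGAAGT, letters bound by ETS factors such as PU.1, was present in Mpo, Elane, and S100a8, that is 3 of 10 windows, and in 3.2% of all windows. Its shorter form GAGGAA, which every GAGGAAGT contains, was in 6 of 10 and in 28.3% of all windows. TTNNGNAA, a loose form of the C/EBP site, was in 6 of 10 and in 40.7%, and the strict form TTGCGCAA was in 0 of 10 and in 0.183%. GGGANTTTC, letters of an NF-kB site, was in S100a9 alone among the 10 and in 1.11% of all windows. A match is a description of these letters and not a shown binding site.

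The windows of Mpo and Elane (precursor genes), Ngp (a secondary granule gene), and S100a9 (a late gene) are printed 5′ to 3′ on the gene's strand, as far as they lie before the start and outside annotated exons, with matches to any of the 5 searched motifs in capitals. Mpo is at chr11:87793534-87793580 on the plus strand and Elane at chr10:79886062-79886246 on the plus strand. Ngp is at chr9:110419558-110419746 on the plus strand and S100a9 at chr3:90695722-90695971 on the minus strand.
Mpo: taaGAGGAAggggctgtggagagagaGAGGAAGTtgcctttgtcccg
Elane: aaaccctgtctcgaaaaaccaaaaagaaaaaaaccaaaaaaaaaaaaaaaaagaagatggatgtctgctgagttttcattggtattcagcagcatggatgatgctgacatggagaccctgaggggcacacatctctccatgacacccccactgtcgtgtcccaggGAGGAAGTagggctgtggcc
Ngp: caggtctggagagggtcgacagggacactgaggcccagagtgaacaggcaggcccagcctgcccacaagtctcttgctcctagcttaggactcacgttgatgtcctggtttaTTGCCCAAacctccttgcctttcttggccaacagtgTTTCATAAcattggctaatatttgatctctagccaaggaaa
S100a9: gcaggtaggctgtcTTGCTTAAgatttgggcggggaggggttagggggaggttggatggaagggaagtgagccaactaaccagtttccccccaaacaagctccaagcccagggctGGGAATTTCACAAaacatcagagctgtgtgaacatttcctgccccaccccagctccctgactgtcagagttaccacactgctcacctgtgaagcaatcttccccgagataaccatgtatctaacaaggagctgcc
Distances are counted from the RefSeq start. In Mpo, Elane, and Ngp that start lies inside the annotated gene span, and the printed stretch ends where that span begins. The matches therefore lie nearer to the annotated gene start than to the RefSeq start. In Mpo the capitals are GAGGAA and GAGGAAGT, and the latter began 224 bases before the RefSeq start. In Elane GAGGAAGT began 85 bases before the RefSeq start. In Ngp both runs are matches to TTNNGNAA on the opposite strand, 138 and 102 bases before the start. In S100a9 the first run is TTNNGNAA on the opposite strand, and the second joins GGGANTTTC, 135 bases before the start, with an overlapping TTNNGNAA.

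Between BL and 0dpr, S100a9 and Retnlg fell in immature mice, 2 of 10 genes, against 4.66% of all 21204 genes called lower in that comparison (edgeR quasi-likelihood, Benjamini-Hochberg adjusted p under 0.05). In mature mice 7 of 10 fell, against 10.6% of all genes called lower. The 3 mature genes that were not called were Ltf (log2 fold change -1.70 ± 0.66 SE, adjusted p = 0.0597), Camp (-1.68 ± 0.63, adjusted p = 0.0528), and Ngp (-1.63 ± 0.67, adjusted p = 0.0761). All 10 log2 fold changes were negative at both ages, from -1.67 to -0.95 in immature and from -2.04 to -1.37 in mature mice.

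S100a9 (chr3:90692632-90695721, minus strand), the calprotectin subunit with the higher level per kb, had CPM of 4353, 2497, 3071, and 2606 in immature BL ribs and 566, 2385, 903, and 305 at 0dpr. In mature mice it had 3820, 4379, 7930, and 3208 at BL and 656, 2658, 751, and 1352 at 0dpr. The stages did not overlap at either age, although replicate 2 at 0dpr came close to the baseline libraries at both. The log2 fold change of S100a9 was -1.59 ± 0.52 (edgeR, adjusted p = 0.043) at the younger age and -1.84 ± 0.52 (adjusted p = 0.00982) at the older age. Mpo differed by -0.99 ± 0.56 in immature mice without passing the threshold (adjusted p = 0.272), and fell by 2.04 ± 0.58 on the log2 scale in mature mice (edgeR, adjusted p = 0.00981).

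These counts rested on single libraries. Without immature 0dpr replicate 2, 9 genes were called in immature mice. Without immature BL replicate 3 or 4, 1 gene was called, and without immature BL replicate 2 or 6 or immature 0dpr replicate 1, 3, or 4 there were 0. With the replicate number as a block 0 were called in immature mice and 9 in mature mice. In mature mice the count was 4 without mature BL replicate 3 or mature 0dpr replicate 1, and 3 without mature 0dpr replicate 3. The interaction of age with this change called 0 of 10 genes, against 0.0141% of all genes, with 0 at an unadjusted p under 0.05 and 0 by DESeq2.

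Markers of other cells moved at the same step. In mature mice 20 of 20 skeletal muscle genes were called higher, against 2517 of all 21204 genes. In immature mice 2 of 20 were, against 1268 of all genes, and 18 of 20 did not pass. The monocyte and macrophage list had 8 of 10 genes called lower in mature and 1 of 10 in immature mice, with a summed CPM of 879 to 1487 at BL and 535 to 792 at 0dpr at the older age. The eosinophil and basophil list had 4 of 6 lower in mature and 1 of 6 in immature mice, and the megakaryocyte list 4 of 6 lower in immature mice. The erythroid marrow list had 0 of 11 genes called in either direction at either age (edgeR), with a median log2 fold change of -1.11 in immature and -0.73 in mature mice against a median of -0.02 or closer to 0 over all genes. With the muscle score as a covariate 0 of the 10 genes were called by edgeR at either age. In that fit the log2 fold change was -1.66 for Retnlg (adjusted p = 0.0877) and -1.38 for S100a9 (adjusted p = 0.159) in immature mice, and from -1.58 to -1.20 for the 7 genes called in mature mice. The part of these cells in the lower values of the 10 genes was not tested further.

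From 0dpr to 2dpr Csf3r was the only one of the 10 that rose in immature mice, against 21.8% of all genes called higher, and the only one that rose in mature mice, against 22.7%. None of the 10 was called lower in immature mice by edgeR, against 22.2% of all genes, with Mpo alone among them at an unadjusted p under 0.05, and DESeq2 called 1 gene in either direction. In mature mice Camp fell, against 24.9%. The shares of all genes called at this step were large, and the members' counts lay below them in both directions.

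**Figure D2:**
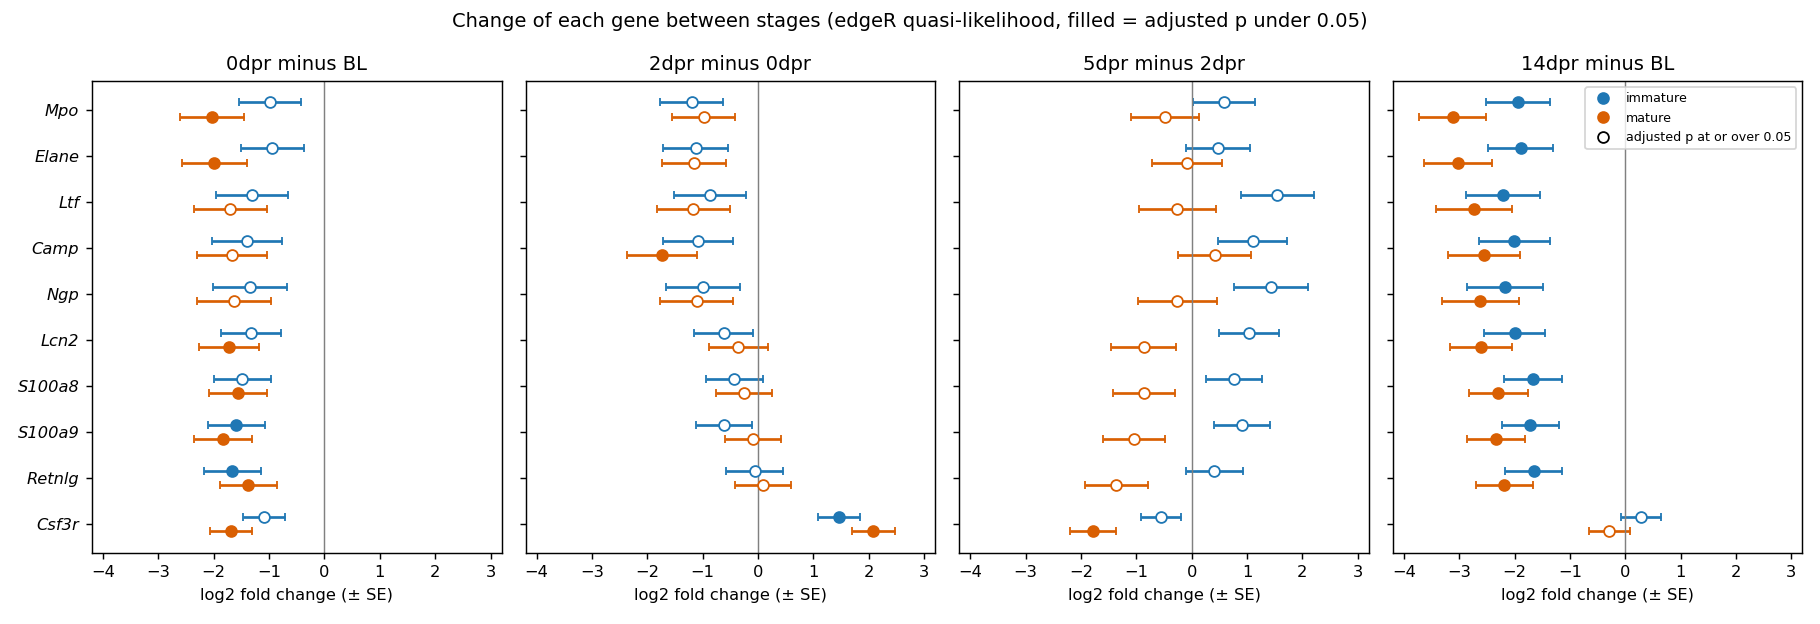
Log2 fold change with its SE for each gene (rows) between stages (panels), in immature (blue) and mature (orange) mice, with filled points where the adjusted p was under 0.05. Csf3r moves to the right of 0 at 2dpr minus 0dpr, to 1.45 and 2.08, and is the only gene near 0 at 14dpr minus BL.

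Csf3r (chr4:126024550-126044440, plus strand) is the receptor through which granulocyte colony-stimulating factor drives neutrophil production and survival. In immature mice its CPM was 111, 61.5, 60.3, and 96.0 at BL, 26.1, 71.6, 15.6, and 40.5 at 0dpr, and 81.4, 130.5, 128, and 80.5 at 2dpr. It was 46.2, 59.0, 50.3, and 131 at 5dpr, and 113, 84.4, 92.8, and 110.1 at 14dpr. All libraries at 2dpr were above all at 0dpr, while the 2dpr and BL ranges overlapped.

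In mature mice the CPM of Csf3r was 156, 147, 181, and 90.3 at BL, 46.1, 63.5, 26.2, and 42.2 at 0dpr, and 156, 116, 121, and 358 at 2dpr. It was 45.65, 77.1, and 40.5 at 5dpr, and 122, 131, 87.1, and 130.3 at 14dpr. The 2dpr libraries were again all above those at 0dpr and also all above those at 5dpr, and replicate 4 at 2dpr stood far above the others.

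The rise of Csf3r from 0dpr to 2dpr was 1.45 ± 0.38 on the log2 scale in immature mice (edgeR, adjusted p = 0.00196), while for mature mice it was 2.08 ± 0.38 (adjusted p = 2.59e-05). Leaving out any 1 library kept both calls, with log2 fold changes from 1.17 to 1.98 and from 1.56 to 2.33. With the muscle score as a covariate the log2 fold changes were 1.20 and 1.80 and neither passed (edgeR, adjusted p = 0.462 and 0.242). The difference between the ages in this rise was -0.63 ± 0.53 and did not pass (edgeR, adjusted p = 0.657). Of the 10 genes 0 were called in that interaction, against 0.0613% of all genes, with 0 at an unadjusted p under 0.05 and 0 by DESeq2.

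Camp, the precursor of the mouse cathelicidin peptide, had CPM of 139, 603, 163, and 268 at 0dpr and 90.7, 22.5, 209, and 32.5 at 2dpr in mature mice. The stages overlapped, and replicate 2 at 0dpr stood above the rest. Camp fell by 1.73 ± 0.64 on the log2 scale (edgeR, adjusted p = 0.0243). The call was lost with the replicate block (adjusted p = 0.0791), and without mature 0dpr replicate 2, mature 2dpr replicate 2, or mature 2dpr replicate 4 (adjusted p = 0.183, 0.084, and 0.0798). Without mature 2dpr replicate 3, 6 genes were called in the mature comparison. In immature mice 3 were called without immature 0dpr replicate 3 and 4 without immature 2dpr replicate 4.

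The other 8 genes did not pass at either age in this step. Mpo differed by -1.19 ± 0.57 in immature and -0.98 ± 0.57 in mature mice, and Elane by -1.13 ± 0.58 and -1.16 ± 0.58. Ltf and Ngp lay between -1.17 and -0.87, and Lcn2 was at -0.62 and -0.35. Nearest to 0 were the late genes, with S100a8 at -0.43 and -0.25, S100a9 at -0.62 and -0.09, and Retnlg at -0.06 ± 0.51 and 0.09 ± 0.50. Adjusted p was at least 0.0872 for each of these genes at each age.

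Because the scaling of a library cancels within it, the later genes were also set against the mean of Mpo and Elane in each library. This difference of log2 CPM is a description, without a test, since the genes were chosen with results known. For the secondary granule genes (Ltf, Camp, Ngp, and Lcn2) in immature mice it was 1.35 ± 0.62 (SD) at 0dpr and then 1.35 ± 0.43 at 2dpr, against 1.75 ± 0.44 and 1.74 ± 0.45 at the older age. These are means over genes that differed among themselves, since the mature log2 fold change over this step was -1.73 for Camp and -0.35 for Lcn2. At 5dpr the difference for the secondary granule genes was 2.26 ± 0.36 in immature and 1.84 ± 0.32 in mature mice. Its lowest immature library at 5dpr, at 1.90, lay above the highest at 2dpr, at 1.84. At BL the means were 1.56 ± 0.27 and 1.48 ± 0.23.

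For S100a8, S100a9, and Retnlg, which mature cells keep, the difference in immature mice was 1.77 ± 0.64 at 0dpr, then 2.39 ± 0.28 at 2dpr. In mature mice it was 1.79, 2.20, 1.95, and 3.07 at 0dpr and 3.40, 3.98, 2.69, and 4.03 at 2dpr. The stages overlapped in both ages, and in mature mice 3 of the 4 libraries at 2dpr lay above every library at 0dpr. At BL the difference was 2.16 ± 0.38 in immature and 1.87 ± 0.48 in mature mice. The BL libraries overlapped those at 2dpr in immature mice and lay below them in mature mice.

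For Csf3r it was -1.37, -1.81, -0.19, and -1.67 at 0dpr, then 1.07, 1.77, 1.75, and -0.21 at 2dpr in immature mice. In mature mice it was -0.59, -1.69, -1.55, and -0.64 at 0dpr and 2.09, 3.99, 0.04, and 3.19 at 2dpr. Each age had 1 library at 2dpr near the 0dpr values, immature replicate 4 and mature replicate 3. These were the libraries with the highest Mpo at 2dpr, and a high Mpo lowers this difference by construction. At 14dpr the difference for Csf3r was 0.75 ± 0.41 in immature and 1.21 ± 0.29 in mature mice, against -1.51 ± 0.29 and -1.49 ± 0.44 at BL.

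**Figure D3:**
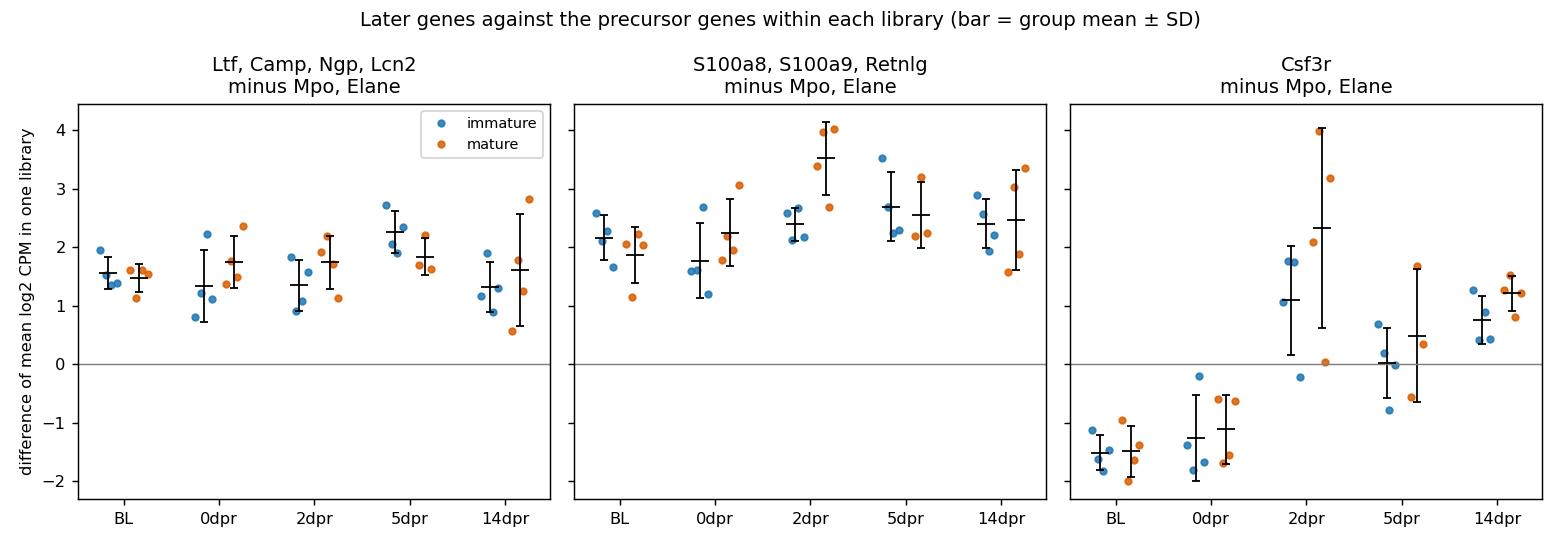
Difference of mean log2 CPM between later genes and the precursor genes Mpo and Elane within each library (1 point per library, bar at the group mean ± SD), by stage and age. The means over the secondary granule genes are near 1.35 and 1.75 at 0dpr and 2dpr, and 2.26 in immature mice at 5dpr. From 0dpr to 2dpr Csf3r goes from below 0 to group means of 1.09 in immature and 2.33 in mature mice.

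Other pairs of genes were also compared within each library. The log2 difference of Ngp and Ltf stayed between -0.30 and 0.22 over the 39 libraries (SD 0.13), and that of S100a9 and S100a8 between 0.21 and 0.73 (SD 0.14). Ngp minus Camp had a wider range, 0.37 to 1.63 (SD 0.25), with its highest value in mature 2dpr replicate 3. Csf3r minus the precursor genes ranged from -1.99 to 3.99 (SD 1.49).

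Among 16137 other genes with a mean of at least 1 CPM, those most like the mean of Mpo and Elane were ranked by Spearman's coefficient over the 39 libraries, which share stages and tissue. Ctsg (cathepsin G) at 0.95, Prtn3 (proteinase 3) at 0.94, and Prss57 at 0.91 came first, followed by Itgb2l, Gfi1, Prss34, 1700047M11Rik, and Ms4a3 at 0.89 to 0.90. Most like the mean of S100a8, S100a9, Retnlg, and Csf3r were Trem3 and Lin28a, both at 0.92, then Ifitm6, Ipcef1, Wfdc21, Mcemp1, Mmp8, and Ly6g at 0.89 to 0.90. Among the 10 genes, the coefficient with the precursor mean was 0.86 to 0.89 for the secondary granule genes, 0.80 for S100a8, 0.81 for S100a9, 0.73 for Retnlg, and 0.09 for Csf3r. The coefficient was thus lower for the late genes than for the secondary granule genes, with Csf3r far apart.

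Other genes of the same cells were followed as lists. For scale, from 0dpr to 2dpr 21.8% of all genes were called higher in immature and 22.7% in mature mice. The shares called lower were 22.2% and 24.9%. Of 9 other primary granule and promyelocyte genes, from 0dpr to 2dpr immature mice had 1 rise and 0 falls, and mature mice 1 and 1 (median log2 fold change -0.61 and -0.62, against -0.04 and -0.05 over all genes). The gene that rose at both ages was Hk3, a hexokinase of myeloid cells, at 1.96 and 1.79. Ctsg had a mean CPM of 39.4 ± 36.0 (SD) at 0dpr in immature mice and 20.4 ± 8.43 at 2dpr. Its mature means were 35.8 ± 23.6 and 24.3 ± 21.2, and it was not called.

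Of 14 other secondary and tertiary granule genes, immature mice had 4 rises and 0 falls and mature mice 6 and 1 over that step. The median log2 fold change was 0.07 in immature and 0.47 in mature mice, against -0.04 and -0.05 over all genes. The largest rises were those of Adam8, a membrane metalloprotease (3.69 and 4.28), and Lyz2, lysozyme (2.28 and 2.02), which macrophages also express. Hp, haptoglobin, rose by 0.93 and 1.93. Mean CPM was lower at 2dpr than at 0dpr at both ages for Mmp9, Cd177, Itgb2l, Pglyrp1, and Ceacam10. For Cd177 the means at 0dpr and 2dpr were 58.1 and 46.2 in immature and 87.0 and 59.3 in mature mice.

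Surface and effector genes of mature neutrophils formed the list with the most rises among these cells' genes. Of 21 tested, 16 rose and 0 fell from 0dpr to 2dpr at both ages, with a median log2 fold change of 1.95 in immature and 2.68 in mature mice. The largest by the rule used for naming were Acod1, which makes itaconate (6.98 and 7.71), and the C-type lectin receptors Clec4e (4.08 and 4.07) and Clec4d (3.67 and 4.33). Slfn4 rose by 4.90 in mature mice and Ptafr, the receptor for platelet-activating factor, by 3.36 in immature mice. Monocytes and macrophages transcribe many of these genes too.

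3 genes of that list that are closely tied to neutrophils were singled out after their values had been seen. Cxcr2, the receptor for CXC chemokines, rose by 1.10 ± 0.43 (edgeR, adjusted p = 0.0371) at the younger age and by 1.82 ± 0.43 (adjusted p = 0.000612) at the older age. Stfa2l1, a stefin, rose by 3.11 ± 0.67 and 3.95 ± 0.65 (edgeR, adjusted p = 0.000256 and 4.18e-06). Ly6g, the antigen used to identify mouse neutrophils, had a mean CPM of 10.2 ± 10.8 (SD) at 0dpr in immature mice and 6.88 ± 4.48 at 2dpr. Its mature means were 14.1 ± 7.49 and 8.57 ± 7.12, and Ly6g did not pass (edgeR, adjusted p = 0.506 and 0.366).

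**Figure D4:**
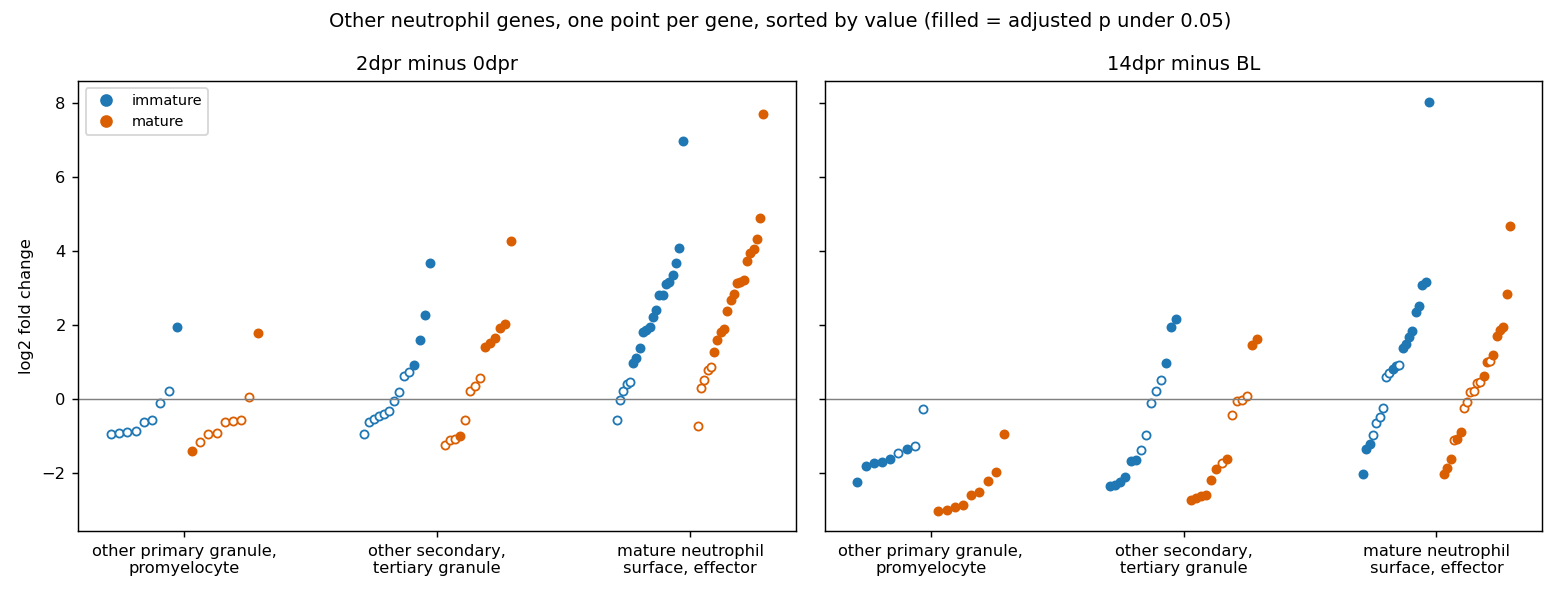
Log2 fold change of every tested gene of 3 lists (9, 14, and 21 genes, sorted within a list) at 2dpr minus 0dpr and at 14dpr minus BL, in immature (blue) and mature (orange) mice, filled where the adjusted p was under 0.05. At 2dpr minus 0dpr most filled points lie in the mature neutrophil list, with 16 of 21 at each age, and at 14dpr minus BL the primary granule list lies below 0.

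The list of neutrophil growth factor and attractant ligands also held Csf1, Cxcl12, and Anxa1, so its counts are not of recruiting signals alone. Its baseline means ran from 0 CPM, as for Csf3 at both ages, to those of C3, a complement component. C3 had 738 CPM in immature and 902 CPM in mature mice. Of 13 tested, from 0dpr to 2dpr immature mice had 8 rises and 1 fall, and mature mice 10 and 1. Cxcl2, a ligand of Cxcr2, had a mean of 0.0825 ± 0.108 CPM (SD) in immature BL ribs, 2.31 ± 3.37 at 0dpr, 54.0 ± 23.1 at 2dpr, 10.0 ± 4.53 at 5dpr, and 87.8 ± 17.5 at 14dpr. In mature mice the means of Cxcl2 were 0.672 ± 0.448, 0.754 ± 0.598, 121 ± 116, 13.7 ± 5.77, and 82.6 ± 19.1. Cxcl3, another such ligand, had 0 counts in every immature library at BL and 0dpr and a mean of 15.5 ± 3.43 CPM at 2dpr.

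Csf3, the ligand of Csf3r, was near the detection limit. It had 0 counts in all BL libraries of both ages, 1 count at most in an immature and 0 in a mature library at 0dpr, and a highest value of 0.419 CPM in immature and 1.85 CPM in mature mice at 2dpr. In mature mice Csf3 passed the test for 2dpr against 0dpr (edgeR, adjusted p = 0.00355), with no fold given because the group at 0dpr held no count, whereas immature mice did not reach the threshold (adjusted p = 0.273).

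Markers of other cells moved over the same step. The 10-gene monocyte and macrophage list had 10 genes called higher in immature and 9 in mature mice, and its summed CPM went from 506 to 809 at 0dpr to 3572 to 4730 at 2dpr in immature mice, with 535 to 792 and 4296 to 5076 at the older age. The erythroid marrow list had 10 and 11 of 11 genes called lower, with summed CPM from 3793 to 19359 at 0dpr to 2143 to 4402 at 2dpr in immature mice, with 13248 to 26303 and 1159 to 3969 at the older age. In the B lineage list immature mice had 7 falls and 1 rise and mature mice 9 and 1, in the megakaryocyte list 4 and 5 of 6 fell and 1 rose, and in the eosinophil and basophil list 1 and 4 of 6 fell and 1 rose. The part of these cells in the values of Csf3r, Mpo, and Elane was not tested.

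**Figure D5:**
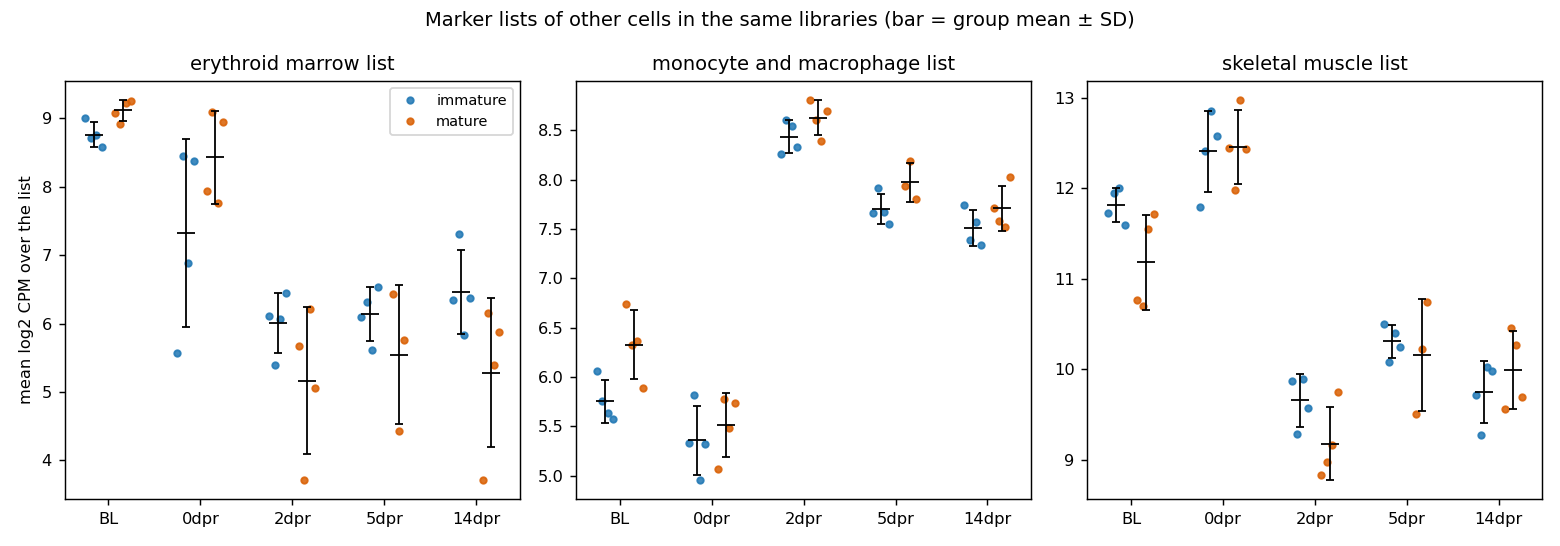
Mean log2 CPM over the erythroid marrow, monocyte and macrophage, and skeletal muscle lists in each library (1 point per library, bar at the group mean ± SD), by stage and age. At 2dpr the erythroid and muscle lists are lower and the macrophage list higher than at 0dpr.

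From 2dpr to 5dpr few calls were made. In immature mice 0 of 10 genes were called, against 8.05% of all genes in either direction, with 2 at an unadjusted p under 0.05 (Ltf and Ngp) and 0 by DESeq2. In mature mice Csf3r fell by 1.79 ± 0.42 on the log2 scale (edgeR, adjusted p = 0.00299), 1 of 10 genes against 6.38% of all genes called lower. With only the libraries of the compared groups in the fit that call was lost (adjusted p = 0.0555), and without mature 2dpr replicate 2 there were 2 calls.

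Ltf, the iron-binding protein of secondary granules, had CPM of 179, 92.3, 94.1, and 408 at 2dpr and 273, 344, 500.0, and 1138 at 5dpr in immature mice. In mature mice it had 150, 36.8, 639, and 92.7 at 2dpr and 301, 144, and 131 at 5dpr. The log2 fold change of Ltf was 1.55 ± 0.66 (edgeR, adjusted p = 0.165) at the younger age and -0.26 ± 0.70 (adjusted p = 0.855) at the older age. The ranges overlapped at both ages.

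The interaction of age with the change from 2dpr to 5dpr was positive for all 10 genes, from 0.56 to 1.96, with a median of 1.66 against -0.05 over all genes. None passed (edgeR, lowest adjusted p = 0.553), against 0% of all genes. At an unadjusted p under 0.05 there were 5 (Lcn2, S100a8, S100a9, Retnlg, and Csf3r), and DESeq2 called 0. Over all genes the unadjusted count was 1715, and DESeq2 called 36.

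Genes of the mature neutrophil list fell over the same step, as counted here for each age. From 2dpr to 5dpr 18 of 21 surface and effector genes fell in mature mice and 6 of 21 in immature mice, with median log2 fold changes of -1.57 and -0.81. Over all genes 1353 were called lower in mature and 781 in immature mice, with medians of 0.06 and 0.01. Cxcr2 fell by 2.00 ± 0.47 in mature mice (edgeR, adjusted p = 0.00332) and differed by -0.20 ± 0.42 in immature mice (adjusted p = 0.874). Slfn4 fell by 3.17 in mature mice and Il1r2, the decoy receptor for interleukin 1, by 2.55. In the interaction of age with this change 0 of the 21 genes were called by edgeR, with a median of 1.06 and 9 genes at an unadjusted p under 0.05. Over the same step the monocyte and macrophage list, cells that transcribe many of these genes, had 5 of 10 genes called lower in immature and 4 of 10 in mature mice. The skeletal muscle list had 4 of 20 called higher in immature and 11 of 20 in mature mice. The part of these cells was not tested.

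From 5dpr to 14dpr no gene of the 10 was called at either age. The shares over all genes were 3.18% in immature and 4.18% in mature mice. At an unadjusted p under 0.05 there was 1 gene in each, Ltf in immature and Csf3r in mature mice, and DESeq2 called 0 and 1. Csf3r differed by 1.11 ± 0.41 in mature mice (edgeR, adjusted p = 0.12), and its 14dpr libraries were all above its 5dpr libraries. The interaction over this step called 0 of 10 genes, against 0% of all genes, with 1 at an unadjusted p under 0.05 (Ltf) and 0 by DESeq2, while 901 of all genes had an unadjusted p under 0.05 and 5 were called by DESeq2.

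Over the whole course, 9 of the 10 genes were lower at 14dpr than at BL. In immature mice 9 fell, against 15.1% of all genes called lower, and in mature mice 9 fell, against 16.4%. The gene that did not was Csf3r at both ages, with log2 fold changes of 0.28 ± 0.37 (edgeR, adjusted p = 0.609) and -0.29 ± 0.37 (adjusted p = 0.606). The groups did not overlap for any of the 9 genes at either age, and overlap was not counted over all genes.

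In immature mice the falls were from 3.15-fold for Retnlg (adjusted p = 0.0125) to 4.62-fold for Ltf (adjusted p = 0.0108). In mature mice they were from 4.54-fold for Retnlg (adjusted p = 0.00118) to 8.11-fold for Elane (adjusted p = 0.000166) and 8.68-fold for Mpo (adjusted p = 9.94e-05). The precursor genes therefore had the largest fitted falls in mature mice only. In immature mice Mpo fell 3.85-fold and Elane 3.71-fold, less than Ltf, Ngp, Camp, and Lcn2. Retnlg had the smallest fitted fall of the 9 at both ages, close to S100a8 (3.17-fold) in immature mice. These orders were not tested between genes. Leaving out 1 library kept all 9 calls in mature mice and 6 to 9 in immature mice. Camp lost its call without immature 14dpr replicate 1, and Camp, S100a8, and Retnlg lost theirs without immature 14dpr replicate 3, with adjusted p from 0.0515 to 0.0552.

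Over this course 6 of the 9 other primary granule genes fell in immature and 9 of 9 in mature mice. Over all 21204 genes the shares called lower were 15.1% and 16.4%, and 3473 and 3629 genes were called higher. Ctsg fell by 1.69 and 3.02 on the log2 scale and Fcnb, ficolin B, by 2.24 and 2.87. Of the 14 other secondary and tertiary granule genes, immature mice had 3 rises and 6 falls and mature mice 2 and 7. Chil3 (Ym1, also a macrophage product) fell by 2.34 and 2.68, and Itgb2l, an integrin subunit, by 2.31 and 2.62. Mmp9, the gelatinase of tertiary granules and of osteoclasts, rose from 5dpr to 14dpr, by 1.73 in immature and 1.78 in mature mice. Of the 21 mature neutrophil genes, immature mice had 11 rises and 3 falls and mature mice 8 and 5, and Ly6g was among those that fell, by 2.03 and 2.01.

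The erythroid marrow list was lower over the same course in 11 of 11 genes at both ages, with medians of -2.23 and -3.57. The monocyte and macrophage list was higher in 9 of 10 genes in immature and 8 of 10 in mature mice, and lower in 1 of 10 at both ages. The muscle list fell in 20 of 20 and 17 of 20 genes. With the muscle score as a covariate 9 genes were called in mature mice, and 5 in immature mice (Mpo, Elane, Ltf, Camp, and Ngp). The 4 immature genes that lost the call had log2 fold changes in that fit of -2.76 for Lcn2, -2.40 for S100a8, -2.47 for S100a9, and -1.68 for Retnlg, each at least as far from 0 as without the covariate. The part of marrow cells in these falls was not tested.

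Between the ages, none of the 10 genes was called at any stage. At BL there were 0 calls against 0.585% of all genes, with 1 at an unadjusted p under 0.05 (Csf3r) and 0 by DESeq2. At 0dpr there were 0 against 0.726%, with 0 at an unadjusted p under 0.05 and 0 by DESeq2, and also 0 with the replicate block. At 2dpr there were 0 against 0.627%, with 1 unadjusted (Csf3r) and 0 by DESeq2.

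Later stages gave the same count. At 5dpr there were 0 calls against 0% of all genes, with 2 unadjusted (Ltf and Lcn2) and 0 by DESeq2, while over all genes 1081 had an unadjusted p under 0.05 and DESeq2 called 33. At 14dpr there were 0 calls against 0.00943%, with 0 unadjusted and 0 by DESeq2.

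The sizes behind these counts were not small. At BL all 10 genes had a lower fitted level in immature mice, with log2 differences (immature minus mature) from -0.93 for Ltf to -0.52 for Retnlg and a median of -0.755. Mpo averaged 447 ± 71.6 CPM (SD, n = 4) in immature and 847 ± 373 CPM in mature BL ribs, and the log2 difference was -0.92 ± 0.56 (edgeR, adjusted p = 0.569). Csf3r averaged 82.1 ± 25.2 and 144 ± 38.3 CPM, with a difference of -0.81 ± 0.37 (adjusted p = 0.382).

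At 2dpr the fitted differences (immature minus mature) of the late genes were negative without passing, with Csf3r at -0.84 ± 0.37 (edgeR, adjusted p = 0.309), Retnlg at -0.96 ± 0.51 (adjusted p = 0.418), and S100a9 at -0.91 ± 0.51 (adjusted p = 0.458). The precursor genes differed less, with Mpo at -0.09 ± 0.56 and Elane at 0.21 ± 0.58. At 5dpr the fitted differences were positive for all 10 genes, from 0.39 for Csf3r to 1.56 ± 0.73 for Ltf (edgeR, adjusted p = 0.964), with n = 3 in mature mice. At 14dpr the values lay on both sides of 0, from -0.42 to 0.28. With SE of this size, an absence of calls does not show that the ages were alike.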

How the data were processed

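RNAseq of rib tissue was deposited by the authors as raw read counts per gene (48733 genes), as filtered counts (21204 genes), and as a signal of TMM-scaled CPM (counts relative to library size). The submitters' processing notes name STAR 2.5.2a and GRCm38. The deposited signal equalled CPM recomputed with edgeR to a relative difference of 5e-15. Filtered counts of 39 libraries were fitted with edgeR 4.0.16 (R 4.3.3, quasi-likelihood, TMM, 1 coefficient per group, prior count 2), with Benjamini-Hochberg adjustment over all genes and a threshold of 0.05. All 10 groups shared 1 estimate of spread. The script was tested on simulated data. Depth limits precision for genes of few counts, such as Csf3.

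The members and gene lists were chosen with earlier results of these data known. Of each list and comparison, up to 4 genes were named by the largest absolute log2 fold change among those called with a mean of at least 1 CPM, and 8 genes by Spearman's coefficient for each of the precursor and late means. Other genes named were chosen after their values were seen. Alternatives were RLE factors, DESeq2 1.42.0, 2 other filters, a replicate block, a muscle covariate, only the compared groups, and leaving out each library. Libraries of a group differed by more than counting noise (lowest ratio 6.39 over 57 pairs). Exon lengths and positions were taken from the GENCODE annotation of the same build.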

Additional observations from a re-analysis of the deposited data

Results flagged for a closer look

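In 7 of 90 groups of values tested (the 10 genes in the groups of 4 libraries), 1 library stood apart from the others by Dixon's ratio, and chance alone gives about 1 in 20. In immature mice at 2dpr, replicate 4 stood above the other libraries for Mpo (167 CPM), Elane (52.0 CPM), and S100a8 (943 CPM). In mature mice at 0dpr, replicate 2 stood above the others for Mpo (386 CPM) and Elane (109 CPM). Csf3r stood apart in immature mice at 5dpr, with 131 CPM in replicate 5, and in mature mice at 2dpr, with 358 CPM in replicate 4. The values of genes within a library are not independent, so these 7 cases come from 4 libraries. Without immature 2dpr replicate 4, 4 genes were called between 0dpr and 2dpr in immature mice. Without mature 2dpr replicate 4, Csf3r was still called and Camp was not.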

How the results depend on the processing

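Of 31 calls of a gene in a comparison between stages, all 31 were kept with RLE size factors, with filterByExpr (18322 genes), with no filter (35481 genes), and with DESeq2. With the replicate number as a block 28 were kept, with only the libraries of the compared groups 27, and with the muscle score as a covariate 15, and no called log2 fold change turned its sign. The muscle score itself differed between stages. Between BL and 0dpr in immature mice the count went from 2 to 4 with no filter and with DESeq2, and to 0 with the replicate block, with the muscle covariate, and with only the compared groups. With the muscle covariate it was 0 for immature and mature mice between 0dpr and 2dpr, 0 for mature mice between BL and 0dpr, and 5 for immature mice between BL and 14dpr. With only the compared groups it was 1 for mature mice between 0dpr and 2dpr, 0 for mature mice between 2dpr and 5dpr, and 1 at each age between 5dpr and 14dpr, where DESeq2 also called 1 in mature mice. With the replicate block it was 1 for mature mice between 0dpr and 2dpr. The causes were not tested.

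Same-numbered libraries deviated together in every pair in 1 comparison, the ages at 0dpr (mean correlation 0.15, 4 pairs), where the block called 0 genes. Elsewhere not every pair did, and so few pairs cannot show what same-numbered libraries have in common.

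When 1 library was left out, the counts ranged from 0 to 9 (immature) and 3 to 10 (mature) between BL and 0dpr, 1 to 4 and 1 to 6 between 0dpr and 2dpr, 0 to 0 and 1 to 2 between 2dpr and 5dpr, and 6 to 9 and 9 to 9 between BL and 14dpr. They were 0 between 5dpr and 14dpr, between the ages, and in the interactions.

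The mean log2 distance of all 8 later genes from Mpo and Elane changed by 0.53 in immature and 0.90 in mature mice from 0dpr to 2dpr. It changed by 1.05 and 1.81 with the secondary granule genes left out, by 0.0044 and -0.0085 with these alone, and by 0.37 in mature mice with the median in place of the mean. From BL to 14dpr in immature mice the change was 0.25, against 0.75 with the secondary granule genes left out, -0.24 with these alone, and -0.22 with the median. With 1 library left out it ranged from 0.40 to 0.83 and from 0.70 to 1.13 from 0dpr to 2dpr, from 0.15 to 0.39 and from 0.31 to 0.91 from BL to 14dpr, and from -0.53 to -0.09 and from 0.10 to 0.43 from BL to 0dpr.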
